A study of Caenorhabditis elegans with 8 samples.

Results

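The heat shock proteins and chaperones described here comprise 64 of the 20392 genes in the count table of dissected Caenorhabditis elegans intestine. They were selected by gene symbol alone: every gene named hsp, cct, pfd or dnj followed by a number, together with hsf-1 and the Hsp90 gene (daf-21, called hsp-90 in current annotation), but without the endoplasmic reticulum Hsp70 genes hsp-3 and hsp-4. By class they were 1 transcription factor (hsf-1), 2 Hsp90 genes, 4 Hsp70 genes, 1 Hsp60 gene, 13 small heat shock proteins, 8 subunits of the chaperonin CCT, 6 prefoldin subunits and 29 J-domain (DNJ) genes. The name "cytosolic" did not cover them all, since hsp-6, hsp-60, hsp-75, dnj-10 and dnj-21 encode mitochondrial proteins and dnj-7, dnj-20, dnj-27 and dnj-29 encode proteins of the endoplasmic reticulum.

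Chaperones bind unfolded or partly folded proteins and help them to reach, or to regain, their functional shape. Hsp70 acts with J-domain partners, which deliver clients and trigger ATP hydrolysis, and hands a subset of clients, kinases and hormone receptors among them, to Hsp90. CCT is a double-ring chamber that folds actin and tubulin delivered by prefoldin, whereas small heat shock proteins hold unfolding proteins without ATP. Many of these genes are targets of HSF-1, the master transcription factor of the heat shock response, which in worms also acts in development and ageing.

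The libraries came from pools of hand-dissected intestines of wild-type N2 (Bristol) adults at day 1 of adulthood, with 4 libraries of fed animals and 4 of animals fasted for 12 h. Fed animals were grown on OP50 bacteria and dissected after a short bath in M9 buffer, while fasted animals were washed and then kept in M9 for 12 h on a roller, so that absence of food, the long stay in liquid and the added 12 h of age cannot be told apart. The sample labels give 12 h for both groups and mention L1 larvae and auxin plates, against the stated design of day 1 adults without such a treatment. Intestines were lysed in bulk, and in such samples fewer cells of a type and less RNA per cell cannot be told apart.

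Library totals were 20964161 to 26372847 counts in fed and 25310202 to 33846215 in fasted libraries, so that 3 counts corresponded to between 0.0886 and 0.143 RPM (counts divided by the library total and multiplied by 1000000). The vitellogenins, the yolk protein genes of the intestine, took 72.4% ± 0.606 of fed and 67.0% ± 0.596 of fasted counts (SD, n = 4 each), which left a 1.20-fold larger share for all other genes in fasted libraries. Intestinal markers were present throughout (elt-2, ges-1, act-5, asp-1 and ifb-2, summing to 1210 to 1424 RPM in fed and 635 to 840 RPM in fasted libraries). Most of these sums was asp-1. In the test described below, elt-2 (log2 fold change 1.57) and ges-1 (0.95) were called higher and act-5 (−1.67) and asp-1 (−0.79) lower. ifb-2 was not called. Under the TMM scaling given below, elt-2 and ges-1 were not called and ifb-2 was called lower. Summed markers of muscle, pharynx, germline and neurons were higher in fasted libraries. The 8 markers of body wall muscle together reached 9.41 to 12.7 RPM when fed, with myo-3 and tnt-2 at 0, but 884, 55.7, 21.6 and 1260.0 RPM in fasted libraries 1 to 4. The 4 of pharynx reached 0.201 to 0.531 RPM when fed and 183, 1.86, 0.766 and 353 RPM when fasted, and the 10 of germline and oocyte 1.21 to 6.84 and 106, 380.3, 31.2 and 35.3 RPM. The germline sums of fasted 3 and 4 were mostly glh-1, at 28.4 and 27.9 RPM. Without glh-1 the germline sums of fed and fasted libraries overlapped. The 6 neuronal markers reached 4.13 to 7.76 RPM when fed, with unc-119 and sbt-1 at 0, and 10.1 to 38.4 RPM when fasted. In fasted 2 and 3 most of the neuronal sum was snb-1 and unc-64. snb-1 (1.14) was called higher, unc-64 (1.05) and rab-3 (0.68) were not called, and under TMM none of these was called. When fasted, unc-119 reached at most 0.237 RPM, and sbt-1 was at 15.8, 0.632, 0.133 and 20.1 RPM. For each of the muscle, pharynx, germline and neuronal sums the groups did not overlap (exact two-sided permutation test, p = 0.0286, the smallest 4 against 4 libraries can give, 0.0408 adjusted over 10 measures). The marker lists were chosen with earlier results of these data known, so these p-values do not test lists fixed beforehand. By total counts, every fasted library exceeded every fed one in 58.5% of all tested genes. The 6 sperm markers stayed at or under 0.751 RPM in every library (p = 0.0571, adjusted 0.0714, by the same exact permutation test), and the hypodermis markers, given beside hsp-70, overlapped between groups (p = 0.657, exact permutation test).

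Across the whole table the median gene was 2.34-fold higher in fasted libraries after scaling by total counts (log2 fold change 1.23), the scaling the study used. With TMM factors, which centre the bulk of genes instead, the median was 0.16, a shift of 1.07 on the log2 scale. A change by total counts is therefore given beside that of all genes, and the TMM value is stated where the direction or the call depends on it. "Rose" and "fell" are used for genes past a Benjamini-Hochberg adjusted p (false discovery rate, FDR) of 0.01 and a fold change of 1.5 in edgeR's quasi-likelihood test over 7379 genes.

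As a group, the heat shock proteins and chaperones shifted upwards by about as much as the rest of the transcriptome. Of the 64, 6 had no count in any library, 13 had counts but too few for the test, and 45 were tested. Of these, 25 (55.6%) rose, against a background of 52.9% of all tested genes, and 3 (6.67%: hsp-12.3, dnj-7 and dnj-16) fell, against 9.97%. The median log2 fold change of the 45 was 1.13 (2.19-fold), 0.10 below that of all genes, and 22 of them lay above the all-gene median. For 9 of the 45 the fed libraries alone would not have passed the filter (hsp-70, hsp-16.2, cct-3, pfd-2, pfd-5, dnj-2, dnj-11, dnj-17 and dnj-30, of which 7 rose), so that these entered the test through their fasted libraries. Of the other 36, 18 rose, against 2637 of the 5250 genes whose fed libraries alone would have passed. Conversely, the fasted libraries of hsp-12.3, pfd-4 and dnj-28 alone would not have passed, and these entered through their fed libraries. The share of such genes among all tested genes was not counted. With TMM factors 11 rose and 12 fell, against backgrounds of 19.6% and 21.5%, and the median was 0.06. In 27 of the 45 every fasted library exceeded every fed one and in 4 every fasted library lay below, against 58.5% and 11.1% of all tested genes. All 7 tested CCT subunits, 4 of 5 tested prefoldin subunits and both Hsp90 genes lay above the all-gene median, whereas 6 of 21 tested J-domain genes did. The differences between classes were not tested.

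**Figure D1:**
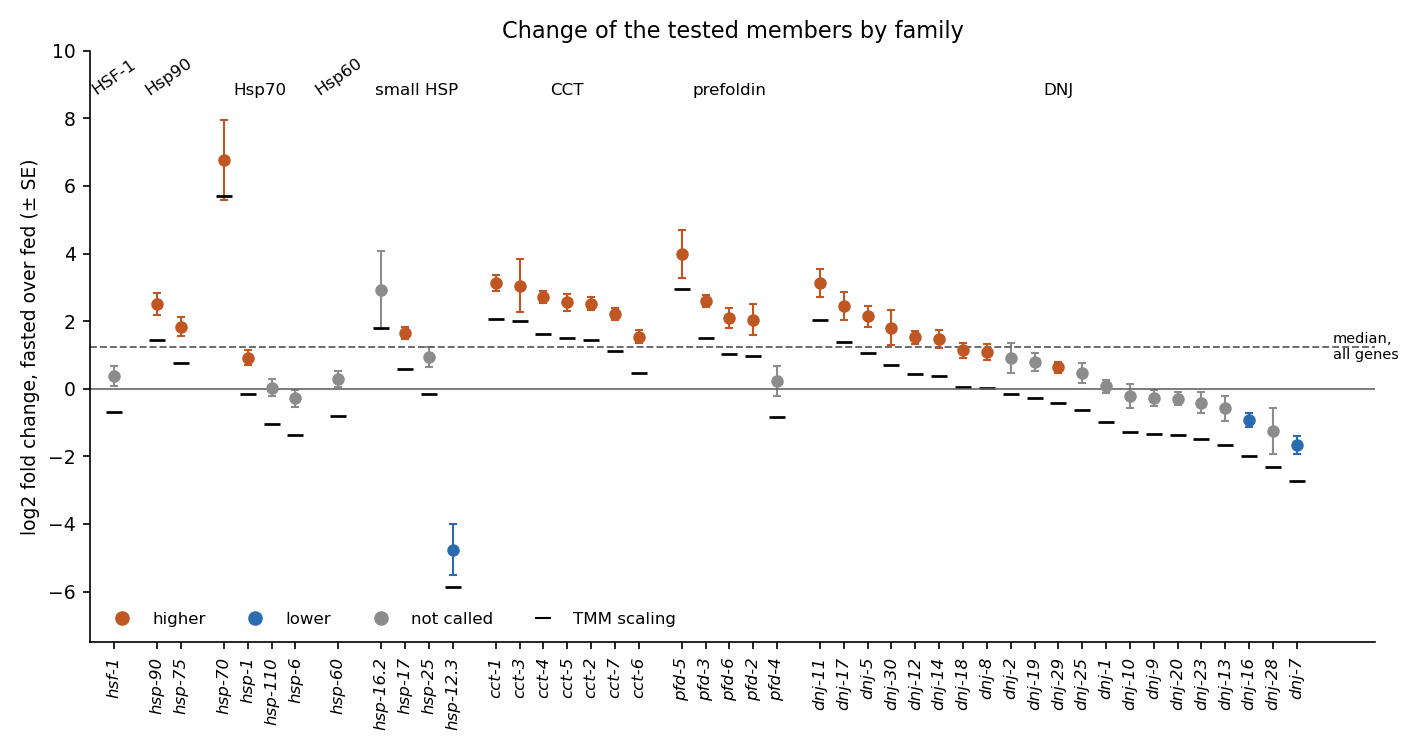
Log2 fold change (fasted over fed, scaled by total counts) with its standard error for each of the 45 tested members, grouped by class and coloured by call, with black dashes at the value under TMM scaling and a broken line at the median of all tested genes, 1.23. The 7 tested CCT subunits all lie above that line, between 1.54 and 3.14, whereas 6 of the 21 tested J-domain genes do.

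hsf-1 itself was expressed at a low level and was not called. It measured 3.49, 2.05, 4.30 and 2.96 RPM in fed libraries 1 to 4 and 5.42, 3.63, 2.66 and 4.85 RPM in fasted libraries 1 to 4. The groups overlapped, with a log2 fold change of 0.37 (SE 0.290, edgeR FDR 0.261), and TMM scaling gave −0.70. hsb-1, which encodes a protein that binds HSF-1 and restrains it in worms, rose (1.88, edgeR FDR 3.57e-04), from a mean of 0.756 ± 0.255 in fed to 2.77 ± 0.580 RPM in fasted libraries (SD, n = 4), and lost its call under TMM. The other genes of this short list, ddl-1 and ddl-2, had too few counts for the test, and hsf-2 was at 0 in all 8 libraries.

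The cytosolic Hsp90 gene hsp-90 (WBGene00000915, chromosome V:14684918-14688545, plus strand, in the WBcel235 assembly) showed the most abundant change. It measured 254, 114, 221 and 145 RPM in the fed libraries and 1696, 967, 778 and 719 RPM in the fasted ones. Every fasted library lay well above the highest fed library, although fasted 1 was 2.36 times fasted 4. The log2 fold change was 2.50 (5.67-fold, SE 0.324, edgeR FDR 5.32e-05), it remained 1.44 and called under TMM, and it was 2.16 without fasted 1. As a share of all counts of the 64 genes, hsp-90 went from 35.5% ± 5.22 in fed to 58.3% ± 6.63 in fasted libraries (SD, n = 4), with 30.0% to 40.9% and 51.2% to 67.1% in single libraries.

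hsp-75, the mitochondrial Hsp90 relative (TRAP1 in mammals), was far less abundant. It measured 1.97, 1.00, 1.13 and 1.90 RPM in fed and 4.37, 5.33, 6.03 and 5.88 RPM in fasted libraries. The groups did not overlap and the gene rose (log2 fold change 1.84, SE 0.270, edgeR FDR 1.25e-04), but with TMM factors the value was 0.77 and was not called.

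The Hsp70 class did not move together. hsp-1, the constitutive cytosolic Hsp70 (Hsc70), measured 87.4, 50.5, 71.6 and 61.2 RPM in fed and 174, 131, 90.2 and 114 RPM in fasted libraries. The lowest fasted library stood just above the highest fed one, and hsp-1 rose 1.88-fold (log2 fold change 0.91, SE 0.222, edgeR FDR 0.00346), less than the median gene. The call rested on single libraries, since the FDR was 0.0133, 0.0109 and 0.0157 without fed 2, fed 3 or fed 4, and the direction turned under TMM (−0.16, not called).

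hsp-70, the heat-inducible Hsp70, was close to absent from fed intestine and gave the largest change of all 45 tested genes. It measured 0.379, 0, 0.0805 and 0.379 RPM in the fed libraries and 71.2, 19.4, 3.93 and 3.34 RPM in the fasted ones. All 4 fasted libraries were higher, but they spread 21.3-fold among themselves, with fasted 1 highest. The log2 fold change was 6.77 (SE 1.19, edgeR FDR 4.39e-04), above that of 98.9% of tested genes, and 5.69 under TMM. Without fasted 1 it was 5.31 (edgeR FDR 4.39e-04), and without fasted 1 and 4, the libraries with the most muscle and pharynx transcripts, 5.70 (edgeR FDR 3.78e-04). Across fasted libraries 1 to 4 the summed hypodermis markers (dpy-7, col-19, rol-6, dpy-13 and col-140) had the same order, at 213, 37.5, 9.09 and 5.05 RPM, with 5.15 to 38.4 RPM in fed libraries. Most of the fasted sums was col-140, at 205, 36.3, 7.83 and 3.93 RPM. dpy-7, col-19 and rol-6 did not have that order, and dpy-13 was at 0. The sum of fed 2, 38.4 RPM, was above that of fasted 2, while hsp-70 was at 0 in fed 2. The part of such tissue in the hsp-70 values was not tested.

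hsp-110, the Hsp110 nucleotide exchange factor of Hsp70, was at 28.7, 15.2, 24.9 and 16.001 RPM in fed and 24.2, 26.6, 15.9 and 19.9 RPM in fasted libraries. The ranges overlapped almost fully (log2 fold change 0.03, SE 0.245, edgeR FDR 0.919). hsp-6, the mitochondrial Hsp70, was at 4.93, 7.11, 6.52 and 5.42 RPM in fed and 7.09, 4.90, 3.40 and 4.34 RPM in fasted libraries, and hsp-60, the mitochondrial chaperonin, at 12.6, 16.1, 18.7 and 14.9 and at 27.4, 13.7, 15.6 and 19.2 RPM. Both overlapped between groups and were not called (−0.28, edgeR FDR 0.312, and 0.29, edgeR FDR 0.267). Relative to the bulk of genes these 3 were low: under TMM hsp-110 (−1.04), hsp-6 (−1.37) and hsp-60 (−0.79) were each called lower.

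Among the 13 small heat shock proteins, hsp-17 dominated in abundance and hsp-12.3 gave the clearest decrease of all members. hsp-17 measured 77.3, 52.9, 48.7 and 55.4 RPM in fed and 167, 158, 198 and 208 RPM in fasted libraries. It rose 3.12-fold with little spread (log2 fold change 1.64, SE 0.171, edgeR FDR 1.12e-05), and under TMM the value was 0.57 and not called. Its annotated exons share 73 of their 560 bases with the opposite-strand gene F52E1.14, and cct-1 shares 117 of its 1868 with the opposite-strand gene T05C12.8. The counting kept reads in the orientation of the gene, but the full-length cDNA and NexteraXT kits are not described as marking the strand, so reads from a shared stretch could come from either gene.

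hsp-12.3 (WBGene00002012, chromosome IV:9444791-9445507, minus strand, WBcel235) was at 7.85, 8.78, 6.92 and 11.9 RPM in fed and 1.02, 0.0790, 0 and 0.177 RPM in fasted libraries. Every fasted library was far below every fed one, and 3 of the 4 were at or near the level of 3 counts. hsp-12.3 passed the filter through its fed libraries, since of the fasted ones only fasted 1 reached the filter's minimum level of 0.379 RPM. It fell by 4.76 on the log2 scale (27.1-fold lower, SE 0.751, edgeR FDR 2.09e-04). The value was −5.85 under TMM and −6.57 without fasted 1. Its neighbour hsp-12.6, 721 bases away on the same strand, had at most 7 counts in any library and was not tested.

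hsp-25 was at 1.25, 2.003, 1.33 and 1.74 RPM in fed and 2.53, 2.41, 2.80 and 4.37 RPM in fasted libraries. The groups did not overlap, but the change missed the threshold (0.94, SE 0.287, edgeR FDR 0.0120) and had the opposite sign under TMM (−0.15).

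The classical heat shock pair hsp-16.2 and hsp-16.41, transcribed away from each other across 220 bases of chromosome V (hsp-16.2 at V:1804334-1804957, hsp-16.41 at V:1805178-1805875, WBcel235), was high in 1 fasted library. hsp-16.2 was at 0.228, 0.572, 0 and 0.152 RPM in fed and 5.45, 0.672, 0.0666 and 0.857 RPM in fasted libraries. hsp-16.41 was at 0.0759, 0.286, 0.161 and 0.152 RPM in fed and 12.9, 1.15, 0.0666 and 1.24 RPM in fasted libraries. In both, fasted 1 was highest, fasted 2 and 4 were above the highest fed library, and fasted 3 was within the fed range or below it. hsp-16.2 was not called (2.91, SE 1.15, edgeR FDR 0.0385, and 1.18, edgeR FDR 0.305, without fasted 1). hsp-16.41 did not pass the filter on low counts, and in a fit without that filter it was called higher (4.505, edgeR FDR 0.00226), but not in a fit requiring a mean of 10 counts (edgeR FDR 0.0126).

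hsp-43, another small heat shock protein left out by the filter, had 0, 2, 0 and 0 counts in fed libraries and 1.64, 1.03, 0.266 and 0.768 RPM in fasted ones. It was at least 7.54-fold higher in fasted libraries, against a fed level of 3 counts per library, and it was called higher in the fit without the filter (edgeR FDR 0.00121). hsp-12.2 was at 0 in fed libraries and reached 9 counts at most in a fasted one. hsp-12.1, hsp-16.1, hsp-16.11, hsp-16.48 and hsp-16.49 had no count in any library. The last 4 lie in an inverted repeat of near-identical copies, and only reads with a unique place in the genome were counted, so their zeros do not show absence of the transcripts.

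**Figure D2:**
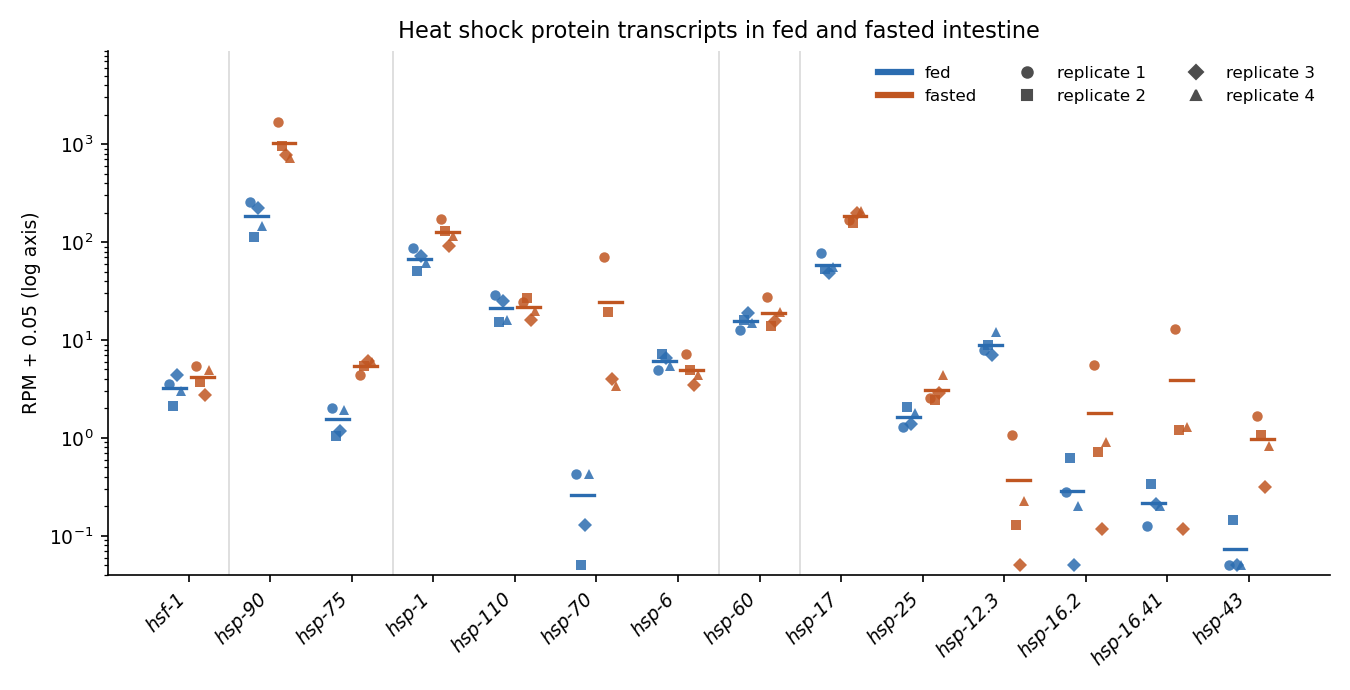
RPM plus 0.05 on a log axis for hsf-1 and the hsp genes that passed the filter or reached 10 counts in a library, in fed (blue) and fasted (orange) libraries, with 1 symbol shape per replicate number and a bar at the mean. The fed and fasted points of hsp-90, hsp-70, hsp-17 and hsp-12.3 are separated, those of hsf-1, hsp-110, hsp-6 and hsp-60 overlap, and fasted replicate 1 stands apart for hsp-16.2 and hsp-16.41.

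CCT subunits rose together. Of the 8 subunits, 7 were tested and all 7 rose, against 52.9% of all tested genes, with log2 fold changes from 1.54 to 3.14 and a median of 2.55 (5.87-fold, 1.32 above that of all genes). Of these, cct-3 passed the filter through its fasted libraries, and the 6 others passed on the fed libraries as well. With TMM factors 5 remained higher, against 19.6% of all tested genes, and cct-3 and cct-6 were not called. The summed CCT level went from 28.5, 22.5, 30.8 and 25.3 RPM in fed libraries to 158, 154, 128 and 144 RPM in fasted libraries, 5.45-fold on the means. Leaving out cct-3 and cct-8, the 6 other subunits varied between fasted libraries by 5.28% to 17.3% (coefficient of variation), against 43.3% for hsp-90. A low spread was not particular to CCT, with 9.23% for pfd-3, 13.2% for hsp-17 and 8.80% for dnj-29. Without fasted 1 and 4 each of these 6 CCT subunits was still called higher. Of the germline markers, glh-1 was high in each fasted library too, at 65.1, 46.3, 28.4 and 27.9 RPM against 0.910, 0.477, 1.21 and 0.379 RPM in fed libraries (5.80, edgeR FDR 1.24e-06), while the 10 markers summed to 106, 380.3, 31.2 and 35.3 RPM, and the part of germline RNA in the CCT values was not tested.

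The 3 subunits with the largest changes were cct-1, cct-3 and cct-4. cct-1 was at 3.07, 1.62, 2.74 and 2.43 RPM in fed and 20.3, 26.6, 17.8 and 22.6 RPM in fasted libraries (3.14, SE 0.233, edgeR FDR 1.10e-06). cct-4 was at 4.44, 4.39, 5.27 and 5.99 RPM in fed and 36.1, 37.8, 27.01 and 30.6 RPM in fasted libraries (2.71, SE 0.183, edgeR FDR 5.62e-07). In both the lowest fasted library was several times the highest fed one. cct-3 changed as much (3.04, SE 0.781, edgeR FDR 0.00465) but at a very low level, 0.303, 0.0477, 0.0805 and 0 RPM in fed and 1.45, 0.435, 1.23 and 0.650 RPM in fasted libraries, and its call was lost without fed 2, fed 3, fed 4, fasted 1 or fasted 3 (edgeR FDR 0.0125 to 0.0209).

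The 3 subunits with the smallest changes were cct-6, cct-7 and cct-2. cct-6 was at 4.70, 3.24, 5.55 and 5.19 RPM in fed and 14.8, 13.8, 13.3 and 12.5 RPM in fasted libraries (1.54, SE 0.196, edgeR FDR 4.79e-05). cct-7 was at 6.37, 6.39, 7.16 and 4.85 and at 33.9, 27.7, 25.3 and 26.7 RPM (2.20, SE 0.177, edgeR FDR 1.89e-06), and cct-2 at 5.54, 4.87, 5.23 and 3.22 and at 28.9, 26.4, 25.6 and 27.2 RPM (2.52, SE 0.193, edgeR FDR 1.32e-06). Even for these, fed and fasted libraries were fully separated. cct-5 lay between (2.55, SE 0.258, edgeR FDR 9.02e-06).

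The subunits of the CCT ring are present in equal number in the assembled complex, but their transcripts were not counted at equal levels. Per kilobase of counted exon, cct-1, cct-2, cct-4, cct-5, cct-6 and cct-7 had fed means of 1.31 to 2.70 RPM and fasted means of 7.09 to 17.7 RPM, a spread of 2.06 and 2.49 times. cct-3 was 31.7 times below the lowest of these in fed and 19.6 times below in fasted libraries, at 0.0414 and 0.361 RPM per kilobase. cct-8 had no count in fed libraries, which allows up to 3 counts in each, and 14, 6, 0 and 4 counts in fasted libraries, and was not tested. The 2 low subunits are annotated over 10000 and 6813 bases of genome (WBcel235), and the 6 others over 2045 to 8927, and whether gene structure or counting bears on their levels was not tested.

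Prefoldin, which passes unfolded actin and tubulin to CCT, was also higher in fasted libraries. Its sum went from 7.97, 5.91, 6.64 and 7.55 RPM in fed to 42.2, 37.4, 32.4 and 39.5 RPM in fasted libraries, 5.40-fold on the means. Of the 6 subunits, 5 were tested and 4 rose, against 52.9% of all tested genes, with a median log2 fold change of 2.09 beside 1.23, and 3 remained higher under TMM, against 19.6%. Of the tested subunits, pfd-2 and pfd-5 passed the filter through their fasted libraries, and the fed libraries of pfd-3, pfd-4 and pfd-6 alone would have passed. Of the latter, pfd-3 and pfd-6 rose, beside 2637 of the 5250 genes whose fed libraries alone would have passed. pfd-3 carried most of the sum, at 5.39, 3.67, 3.90 and 4.44 RPM in fed and 28.6, 27.6, 23.1 and 25.7 RPM in fasted libraries (2.59, SE 0.177, edgeR FDR 6.05e-07).

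pfd-5 gave the largest prefoldin change from a level near 0, with 0, 0.0954, 0.483 and 0.0758 RPM in fed and 3.32, 2.21, 1.87 and 3.25 RPM in fasted libraries (3.99, SE 0.705, edgeR FDR 4.51e-04, and 5.49 without fed 3). pfd-6 was at 1.44, 0.763, 1.53 and 1.82 and at 7.16, 5.97, 3.83 and 6.85 RPM (2.09, SE 0.302, edgeR FDR 1.15e-04). In both, fed and fasted libraries did not overlap. pfd-2 was at 0.455, 0.572, 0.322 and 0.607 RPM in fed and 2.003, 0.711, 2.60 and 2.78 RPM in fasted libraries, with fasted 2 close to the fed range (2.05, SE 0.456, edgeR FDR 0.00202), and it was not called under TMM or without fasted 1 and 4. pfd-4 was the exception, at 0.417, 0.620, 0.402 and 0.531 and at 0.591, 0.632, 0.799 and 0.295 RPM, with overlapping groups (0.23, SE 0.433, edgeR FDR 0.633). pfd-1 had at most 22 counts in a library and was not tested.

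**Figure D3:**
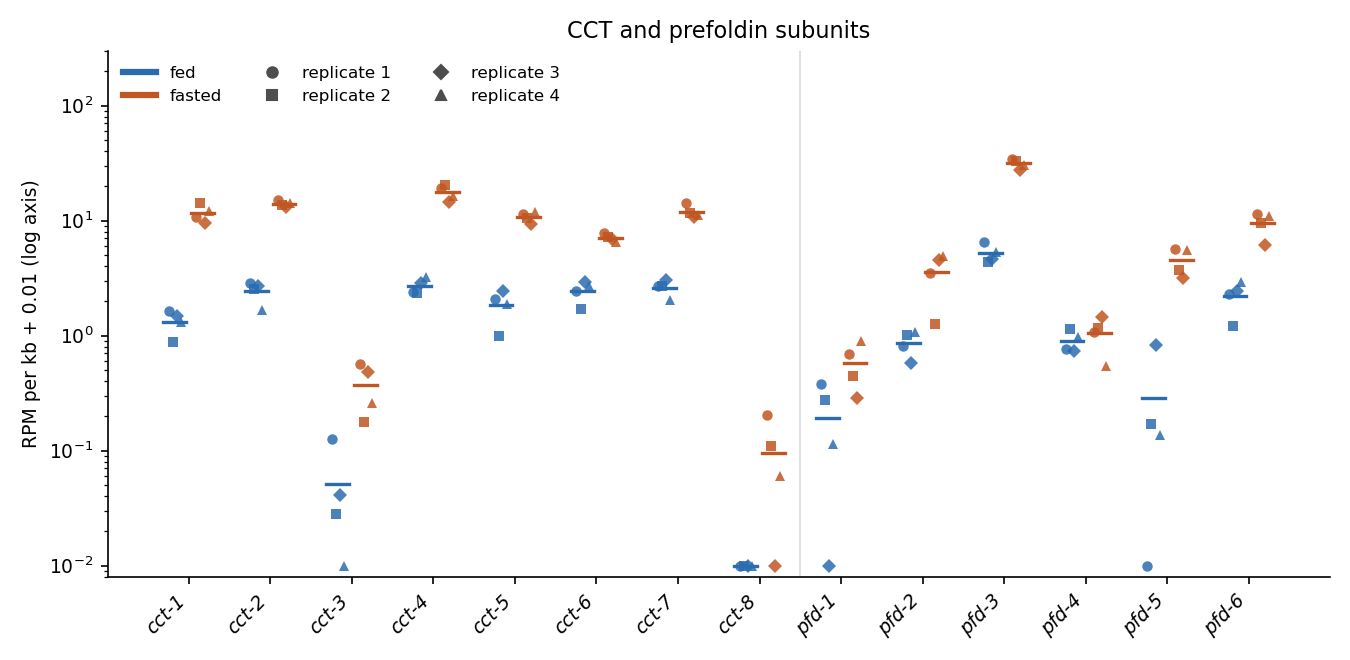
RPM per kilobase of counted exon plus 0.01, on a log axis, for the 8 CCT and 6 prefoldin subunits in fed (blue) and fasted (orange) libraries, with 1 symbol shape per replicate number and a bar at the mean. Fed and fasted libraries are separated for cct-1 to cct-7, cct-3 and cct-8 lie far below the other CCT subunits in both groups, and pfd-4 overlaps.

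The J-domain genes, the largest class, moved in both directions, with a median below that of all genes. Of 29, 1 (dnj-26) had no count, 7 had too few, and 21 were tested, of which 9 (42.9%) rose, 2 (9.52%) fell and 10 were not called, beside 52.9% and 9.97% of all tested genes. Their median log2 fold change was 0.63, which is 0.60 below that of all genes, and 6 of 21 lay above the all-gene median. Of the 21, dnj-2, dnj-11, dnj-17 and dnj-30 passed the filter through their fasted libraries. Under TMM the class median was −0.44, with 1 gene higher and 8 lower, beside 19.6% and 21.5% of all tested genes. The summed level was almost level, at 104, 81.0, 125 and 99.3 RPM in fed and 128, 120.1, 105 and 115 RPM in fasted libraries, 1.14-fold on the means.

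dnj-11, the worm relative of zuotin (DNAJC2), which works at the ribosome, gave the largest increase of the class and was the 1 J-domain gene still higher under TMM. It was at 0.493, 1.10, 0.724 and 0.228 RPM in fed and 7.16, 6.12, 4.20 and 4.58 RPM in fasted libraries (3.13, 8.76-fold, SE 0.405, edgeR FDR 5.29e-05, and 2.04 under TMM). Each fasted library was several times the highest fed one. dnj-5 was at 0.683, 1.14, 1.21 and 0.607 RPM in fed and 3.91, 5.29, 2.80 and 4.05 RPM in fasted libraries (2.14, SE 0.318, edgeR FDR 1.38e-04).

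dnj-12, a class A J-domain partner of cytosolic Hsp70, was at 5.39, 5.91, 6.76 and 4.25 RPM in fed and 19.1, 15.1, 14.2 and 15.7 RPM in fasted libraries (1.52, SE 0.190, edgeR FDR 4.10e-05). dnj-14, the cysteine string protein, was at 0.721, 1.24, 1.29 and 1.06 and at 3.45, 2.77, 2.36 and 3.37 RPM (1.47, SE 0.280, edgeR FDR 7.34e-04). dnj-18 was at 2.16, 3.24, 3.74 and 3.49 and at 5.81, 7.31, 7.46 and 7.12 RPM (1.13, SE 0.214, edgeR FDR 6.96e-04). These 3 were separated between groups by total counts but were not called under TMM, as were dnj-5, dnj-8 (1.09), dnj-17 (2.46), dnj-29 (0.63) and dnj-30 (1.80). The calls of dnj-29 and dnj-30 were lost on leaving out single libraries, dnj-30 in 7 of 8 such fits (edgeR FDR 0.0129 to 0.0300) and dnj-29 without fed 2, fed 4, fasted 1 or fasted 3 (edgeR FDR 0.0102 to 0.0134).

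dnj-7 and dnj-16 fell. dnj-7, the worm relative of P58IPK (DNAJC3), a J-domain partner of BiP in the endoplasmic reticulum, was at 5.65, 4.82, 9.01 and 8.65 RPM in fed and 2.17, 1.74, 2.76 and 2.19 RPM in fasted libraries (−1.66, 3.17-fold lower, SE 0.260, edgeR FDR 1.95e-04). dnj-16, the most abundant J-domain transcript in fed intestine, was at 29.4, 22.2, 40.6 and 34.8 RPM in fed and 13.2, 21.7, 15.7 and 16.3 RPM in fasted libraries (−0.93, SE 0.218, edgeR FDR 0.00280). dnj-7 was well separated, whereas fasted 2 nearly reached the fed range of dnj-16, whose call was lost without fed 3 (edgeR FDR 0.0111), fed 4 (edgeR FDR 0.0116) or fasted 1 and 4 (edgeR FDR 0.0327).

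The cytosolic partners dnj-13 (DNAJB1 type) and dnj-19 (class A) were not called. dnj-13 was at 18.0, 8.40, 13.2 and 9.52 RPM in fed and 15.1, 5.69, 5.63 and 6.29 RPM in fasted libraries, with fasted 1 apart from the rest (−0.58, edgeR FDR 0.161). Without fasted 1 it was called lower (−1.06, edgeR FDR 0.00688), and under TMM too (−1.66). dnj-28, not called with all libraries (−1.26, edgeR FDR 0.118), was called lower without fasted 2 (−2.29, edgeR FDR 0.00606). The other genes that were not called ranged from −0.42 (dnj-23) to 0.90 (dnj-2). The 7 J-domain genes left out of the test, dnj-3, dnj-4, dnj-15, dnj-21, dnj-22, dnj-24 and dnj-27, had at most 22 counts in a library.

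**Figure D4:**
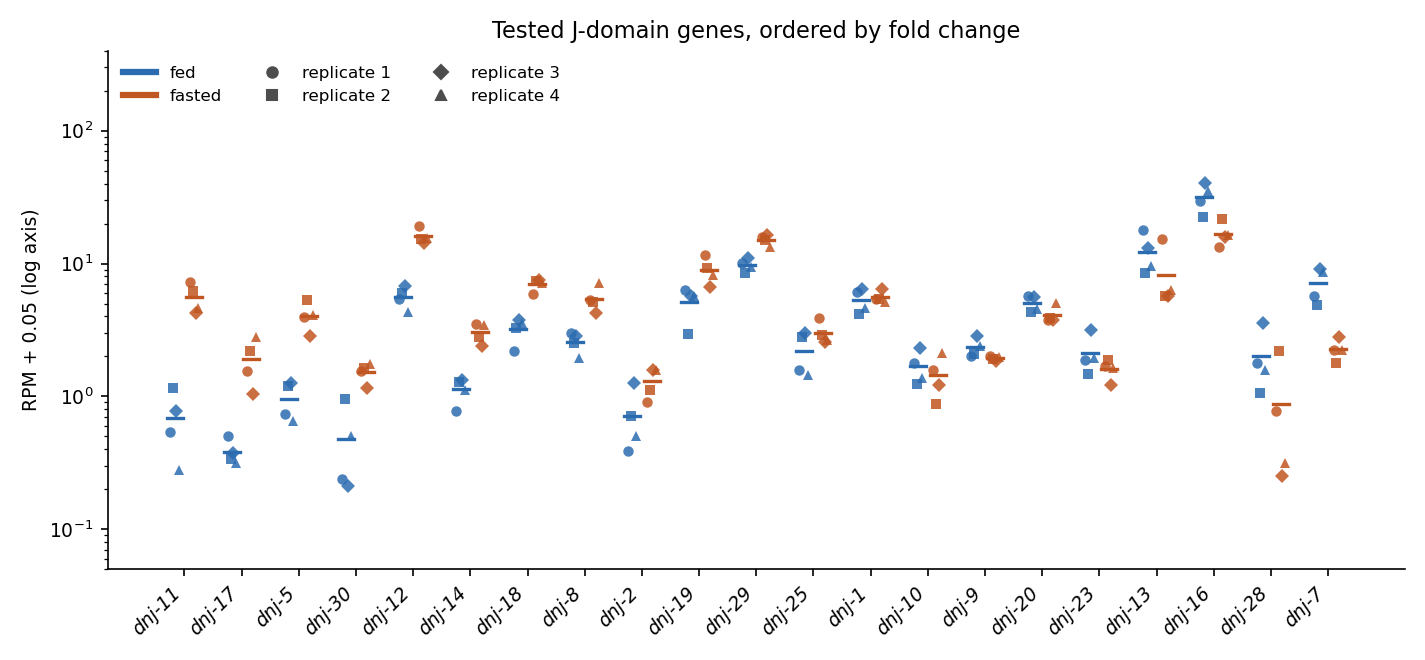
RPM plus 0.05 on a log axis for the 21 tested J-domain genes, ordered from the largest increase (dnj-11, log2 fold change 3.13) to the largest decrease (dnj-7, −1.66), in fed (blue) and fasted (orange) libraries, with 1 symbol shape per replicate number and a bar at the mean. The 9 genes that rose and the 2 that fell are each separated between groups, dnj-2 and dnj-28 overlap although they lie among separated genes, and fasted replicate 1 stands apart for dnj-13.

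Between fasted libraries hsp-70 spread 21.3-fold and hsp-90 2.36-fold, while hsp-90 spread 2.23-fold between fed libraries. Among the fasted libraries, hsp-70, hsp-16.2, hsp-16.41, hsp-90, hsp-1 and dnj-13 were all highest in fasted 1. sip-1, a small heat shock protein gene outside the symbol pattern, was as well, at 17.04, 6.72, 0.333 and 2.42 RPM in fasted libraries 1 to 4 against 1.06, 2.39, 1.13 and 0.607 RPM in fed libraries (2.37, SE 0.880, edgeR FDR 0.0301, not called). Without fasted 1 the sip-1 value was 1.29 (edgeR FDR 0.159), and without fasted 3 it was 2.76 and called (edgeR FDR 0.00336). Fasted 1 was also the highest fasted library for many other members, among them hsf-1, hsp-6, hsp-60, hsp-12.3, cct-2, cct-3, cct-6, cct-7, pfd-3, pfd-5, pfd-6, dnj-11 and dnj-12. For others, among them hsp-17, hsp-75, cct-1, cct-4, cct-5, pfd-2, dnj-5, dnj-8 and dnj-18, another fasted library was highest. The genes named here were picked after their values were seen, and the share of all genes highest in fasted 1 was not counted. Fasted 1 had 884 RPM of muscle markers, 106 RPM of germline markers and 213 RPM of hypodermis markers. Fasted 4 had 1260.0 RPM of muscle markers and the lowest hsp-70 and hsp-90 of the 4. Fasted 2 had 380.3 RPM of germline markers and was below fasted 1 for hsp-70, hsp-16.2, hsp-16.41, hsp-90, hsp-1, dnj-13 and sip-1. The part of other tissues in these values was not tested.

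**Figure D5:**
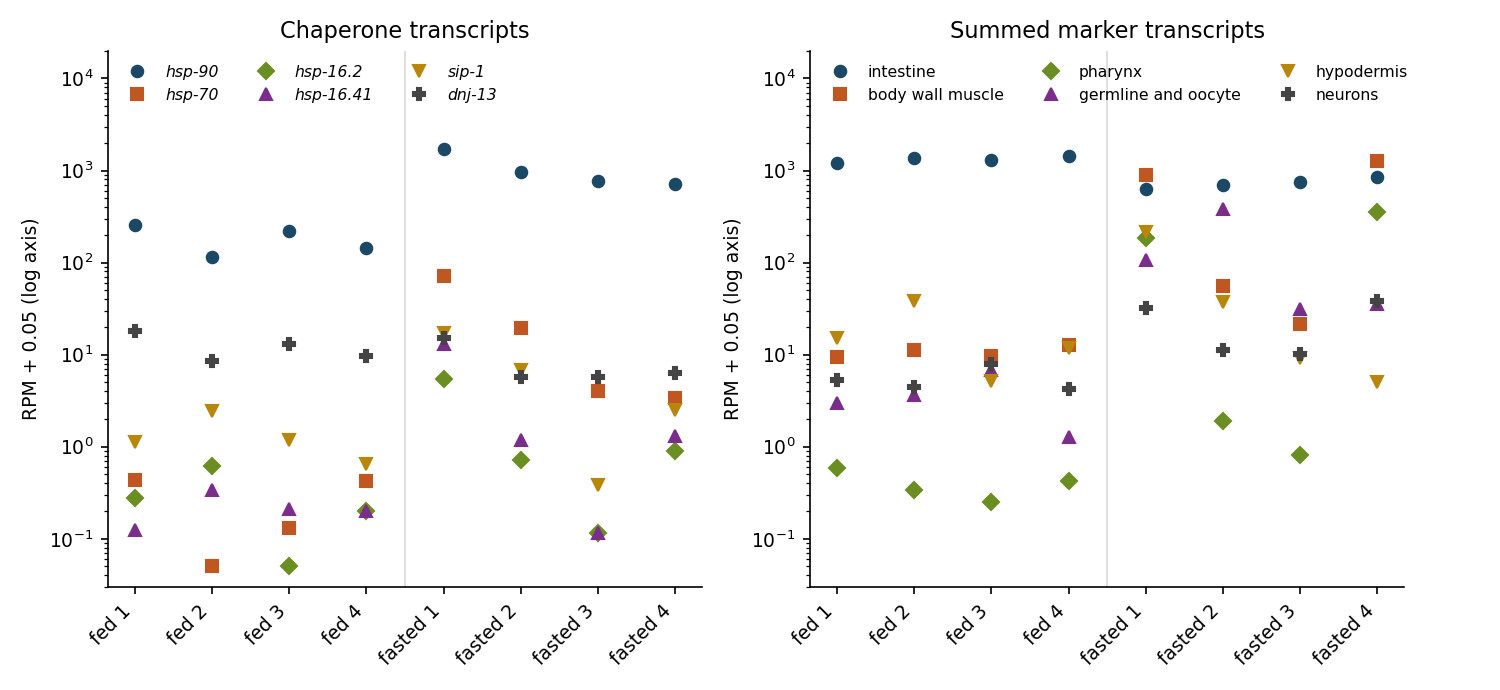
RPM plus 0.05 on a log axis, library by library, for 6 chosen chaperone transcripts (left) and for the summed markers of 6 tissues (right). Fasted 1 is the highest fasted library for each of the 6 chosen transcripts. Muscle and pharynx markers are highest in fasted 4, germline markers in fasted 2 and hypodermis markers in fasted 1.

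The co-chaperones that regulate Hsp70 and Hsp90 were described from a list of 12 genes. Of these 11 were tested, 7 rose and 0 fell, against 52.9% and 9.97% of all tested genes, with a median of 1.24 beside 1.23 for all genes. Under TMM 2 rose and 1 fell, against 19.6% and 21.5%. At an unadjusted edgeR p under 0.05, 1 of the 11 (unc-23) was lower, and DESeq2 with total counts also called 0 lower. hip-1, the Hsc70-interacting protein, gave the largest change, at 5.05, 2.15, 2.61 and 2.46 RPM in fed and 47.8, 28.0, 34.6 and 29.5 RPM in fasted libraries (3.51, SE 0.307, edgeR FDR 3.37e-06). ahsa-1, the worm Aha1, which stimulates the Hsp90 ATPase, was at 1.63, 1.10, 3.18 and 1.71 and at 10.1, 11.1, 9.96 and 9.60 RPM (2.42, SE 0.292, edgeR FDR 3.26e-05). Both were separated in every library and remained higher under TMM.

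Smaller increases, not called under TMM, were measured for the kinase adaptor cdc-37 (1.95), the p23 gene daf-41 (1.48), the ubiquitin ligase gene chn-1 (1.39), the Hsp70-Hsp90 adaptor sti-1 (1.24) and sgt-1 (0.70, which turned to −0.37). The calls of sti-1 and sgt-1 were each lost in 6 of 8 fits that left out 1 library (edgeR FDR up to 0.0288 and 0.0270), holding without fasted 3 or fasted 4 for sti-1 and without fasted 3 or fed 4 for sgt-1. The call of daf-41 was lost without fed 4 (edgeR FDR 0.0120). unc-23, a BAG-domain partner of Hsp70, was at 25.005 ± 2.05 RPM in fed and 17.6 ± 3.05 RPM in fasted libraries (SD, n = 4; −0.51, edgeR FDR 0.0154, not called) and was called lower under TMM. pph-5 (−0.04), bag-1 (0.43) and fkb-6 (0.76) were not called, and unc-45 had too few counts. Of the 7 genes outside the symbol pattern, sip-1 and ZK1128.7 (1.83, edgeR FDR 0.0104) were tested and not called, while F08H9.3, F08H9.4, Y55F3BR.6 and the near-identical Hsp70 genes F44E5.4 and F44E5.5 had too few counts.

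Of the endoplasmic reticulum Hsp70 genes left out by the selection, 1 of 2 fell. hsp-4, the stress-inducible BiP, was at 117, 32.2, 91.0 and 73.9 RPM in fed and 10.7, 12.8, 4.46 and 4.02 RPM in fasted libraries. It fell by 3.30 on the log2 scale (SE 0.476, edgeR FDR 1.13e-04), with every fasted library below every fed one. hsp-3, the constitutive BiP, was at 158, 108, 138 and 124 and at 164, 172, 149 and 175 RPM (0.32, SE 0.137, edgeR FDR 0.0510, not called), and it was called lower under TMM (−0.75).

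By length-corrected level, 3 genes led in both groups. Per kilobase of counted exon the order in fed libraries was hsp-17 (100.5 ± 21.99 RPM), hsp-90 (69.7 ± 24.7) and hsp-1 (32.5 ± 7.57), followed by dnj-16 (20.1 ± 4.97) and hsp-12.3 (18.3 ± 4.46; SD, n = 4 each). In fasted libraries it was hsp-90 (395 ± 171), hsp-17 (314 ± 41.4), hsp-1 (61.2 ± 16.98), pfd-3 (31.4 ± 2.90) and cct-4 (17.7 ± 2.67). The ranges of hsp-17 and hsp-90 overlapped in both groups, as did those of dnj-16 and hsp-12.3 in fed libraries, so their order is not separated from the spread. Summed over the 64 genes, the level went from 621, 379.9, 568 and 449 RPM in fed to 2530.0, 1645, 1383 and 1406 RPM in fasted libraries, 3.45-fold on the means, and without hsp-90 the ratio was 2.18.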

How the data were processed

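Poly(A) RNA of dissected intestines was amplified as full-length cDNA and sequenced. The authors aligned the reads to the ce10 genome, kept uniquely placed reads and deposited whole-number counts over annotated exons, with the exon width of each gene as a further column (a value in bases). Of 20392 identifiers, 19182 matched a symbol in Ensembl release 115 or RefSeq (WBcel235), whose coordinates differ from the ce10 build and were not converted. All 64 members had a position, and 17 of them share exon bases with another gene.

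Counts were divided by the library total (RPM). The test was edgeR 4.0.16 (quasi-likelihood, R 4.3.3) over 4 fed and 4 fasted libraries, with total counts as library sizes, as the study scaled its data, filterByExpr (minimum count 10, minimum total 15) and Benjamini-Hochberg adjustment over 7379 genes. The SE is the absolute log2 fold change divided by the square root of F. On simulated counts for 6300 genes this test recovered 100% and 98% of 4-fold increases and decreases and 80% and 42% of 2-fold ones, with 2 false calls. The simulation gave every gene the same dispersion and changed a small set of genes above a minimum mean count. All other genes were left unshifted. These rates therefore do not carry over to low or widely spread genes, or to the shift of the median gene in these data. Alternatives were TMM factors, DESeq2 1.42.0, other filters, a replicate block, a fold threshold of 2 and left-out libraries.

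Every hsp gene that was tested or reached 10 counts in a library is described. Of cct and pfd, the 3 largest and 3 smallest changes are given, and of dnj the 5 largest increases and decreases among those called and averaging 50 counts or more. Other genes named were chosen after their values were seen. The members, gene lists and marker lists were chosen with earlier results of these data known. Replicates are described as independent biological replicates. The no-count limit is 3 counts, for counting error only.

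The main test did not pair libraries by replicate number. Deviations of same-numbered fed and fasted libraries correlated at 0.040, 0.086, 0.068 and 0.148, which cannot decide whether they shared a culture. The paper describes dissecting some adults of a collection as fed and fasting the rest, and a fit with a replicate block is given below. No library was a copy of another.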

Additional observations from a re-analysis of the deposited data

Results flagged for a closer look

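For 6 genes, a single library of a group of 4 lay apart from the others beyond Dixon's 95% critical value, which is 5.04% of the groups examined (the fed and the fasted group of each gene described). Chance gives about 1 in 20 such groups, so their number is close to that rate, although groups with counts near 0 need not follow it. Fasted 1 was high for hsp-16.2 (5.45 RPM, the others 0.0666 to 0.857), hsp-16.41 (12.9 RPM, the others 0.0666 to 1.24) and dnj-13 (15.1 RPM, the others 5.63 to 6.29). Fasted 4 was high for dnj-20, the worm relative of the endoplasmic reticulum J-domain protein ERdj3 (4.96 RPM, the others 3.70 to 3.87). Fed 2 held the 2 fed counts of hsp-43 (0.0954 RPM, the others 0), and fed 1 was low for dnj-15 (0.0759 RPM, the others 0.286 to 0.322). The last 2 are below or near 3 counts in the library that stands apart.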

How the results depend on the processing

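The scaling decided how many genes were called. By total counts 3901 genes rose and 736 fell, against 1448 and 1585 with TMM factors, 1748 and 1754 in DESeq2 with its own size factors, and 1316 and 1502 with a replicate block and TMM factors. Among the members, 25 rose and 3 fell by total counts, against 11 and 12 with TMM factors, 13 and 13 in DESeq2 with its own size factors, and 10 and 10 with a replicate block and TMM factors. Under TMM 11 of the 25 were still higher and all 3 still lower, none was called in the opposite direction, and 9 other genes were called lower. DESeq2 with total counts kept all 25 and 3 calls and added 2 increases.

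Under TMM, DESeq2's own size factors, and the block with TMM, in that order, the J-domain median turned to −0.44, −0.44 and −0.44. The same settings turned hsf-1 to −0.70, −0.71 and −0.70, hsp-1 to −0.16, −0.18 and −0.18, hsp-110 to −1.04, −1.05 and −1.02, hsp-60 to −0.79, −0.80 and −0.83, and hsp-25 to −0.15, −0.15 and −0.15. They turned pfd-4 to −0.83, −0.84 and −0.89, dnj-1 to −0.99, −1.002 and −0.99, dnj-2 to −0.15, −0.16 and −0.068, dnj-19 to −0.27, −0.28 and −0.26, dnj-25 to −0.62, −0.63 and −0.56, and dnj-29 to −0.44, −0.44 and −0.44. Of the other genes, sgt-1 turned to −0.37, −0.38 and −0.36, bag-1 to −0.64, −0.67 and −0.37, fkb-6 to −0.31, −0.32 and −0.29, and hsp-3 to −0.75, −0.76 and −0.74. The shift is that of the scaling itself, 1.07 on the log2 scale for the median gene.

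Leaving out each replicate in turn gave 22 to 25 members higher and 2 to 4 lower, and 3521 to 3908 genes higher and 636 to 724 lower overall. Genes near 0 changed sign in some of these fits: hsp-110 ranged from −0.10 to 0.21, dnj-1 from −0.034 to 0.17 and pph-5 reached 0.22 without fed 2 and 0.071 without fed 3. hsp-110 was −0.10, −0.085, −0.030 and −0.086 without fed 2, fed 4, fasted 1 and fasted 2, and dnj-1 was −0.034 and −0.0049 without fed 2 and fasted 3. Without fasted 1 and 4 together 18 members were higher and 2 lower, hsf-1 was −0.028 and hsp-60 −0.085, and hsp-1, cct-3, pfd-2, dnj-8, dnj-14, dnj-16, dnj-29 and dnj-30 lost their calls.

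With a replicate block and total counts 25 members rose and 3 fell, with the same genes called, and pph-5 turned to 0.049. A search for heat shock motifs in promoters was not run, since sequence was not used here. Counts limit the low genes: 13 members had too few for the test, and a gene not called cannot be read as unchanged.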
